A study of Homo sapiens with 15 samples.

Results

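The genes that encode the histone variant H2A.Z and the core of its exchange machinery were examined for peaks of H3K4ox, H2A.Z and RUVBL2 in MDA-MB-231 cells, a widely used triple-negative breast cancer line. The set holds 7 genes, chosen by name: H2AFZ and H2AFV, RUVBL1 and RUVBL2, EP400, SRCAP and INO80. Peaks were assigned to a gene when they overlapped its hg19 bounds widened by 10 kb on each side, here called its window. In all, 237 of 647617 deposited peaks met a window: 98 of 252459 and 96 of 246967 in the H3K4ox lists of replicates 1 and 2, 20 of 38584 in the H2A.Z list and 23 of 109607 in the RUVBL2 list. The cells of these 4 chromatin immunoprecipitation (ChIP-seq) libraries carry no knockdown in their labels. H3K4ox is lysine 4 of histone H3 oxidised by LOXL2, and its antibody was handmade. The other 11 samples of the series, an input, 8 RNA-seq and 2 ATAC-seq libraries, were not analysed here. H2A.Z and RUVBL2 had 1 library each and nothing states that the 2 H3K4ox libraries came from separate cultures, so no difference between antibodies was tested and the H3K4ox spread may be technical. A peak score is the authors' own value, in a unit that the sources used here do not give, and sequencing depth is unknown.

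H2A.Z replaces the canonical H2A in a share of nucleosomes, often those beside active gene starts. In mammals it comes from a pair of genes, H2AFZ (now H2AZ1) and H2AFV (now H2AZ2), whose proteins are nearly identical. Large ATP-driven complexes place it: SRCAP and EP400 are the catalytic ATPases of complexes that deposit H2A.Z, the EP400 complex also carrying the acetyltransferase KAT5, while the INO80 complex also slides nucleosomes and has been linked to H2A.Z removal. RUVBL1 and RUVBL2 (Pontin and Reptin) are related AAA+ ATPases that form a joint ring inside all of these complexes.

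RefSeq holds 9 starts for the 7 genes in GRCh38.p14, and the bases before 5 of them are printed as examples. No listed peak overlapped the outer start of any of the 7 genes. Some starts left out also had peaks nearby, at RUVBL2 from 1.0 kb inside the gene. Capitals mark a CCAAT box (CCAAT, or ATTGG on the other strand) or a TATA box (TATAAA, or TTTATA on the other strand), and every sequence runs 5′ to 3′ along the gene. The peaks are in hg19 and were not placed on these letters.
H2AFZ, chr4:99950276-99950525, minus strand: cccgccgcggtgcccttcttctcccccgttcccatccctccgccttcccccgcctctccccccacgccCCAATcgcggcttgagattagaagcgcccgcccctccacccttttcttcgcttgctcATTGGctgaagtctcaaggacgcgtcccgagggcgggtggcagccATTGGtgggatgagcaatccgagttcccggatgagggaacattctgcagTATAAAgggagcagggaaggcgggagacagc
H2AFV, chr7:44848127-44848337, minus strand: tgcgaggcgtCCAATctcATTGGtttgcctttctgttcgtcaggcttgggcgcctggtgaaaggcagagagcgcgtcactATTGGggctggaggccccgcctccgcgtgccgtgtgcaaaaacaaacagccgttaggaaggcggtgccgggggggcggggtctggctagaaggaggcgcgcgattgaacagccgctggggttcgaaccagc
RUVBL1, the inner start, chr3:128123813-128124062, minus strand: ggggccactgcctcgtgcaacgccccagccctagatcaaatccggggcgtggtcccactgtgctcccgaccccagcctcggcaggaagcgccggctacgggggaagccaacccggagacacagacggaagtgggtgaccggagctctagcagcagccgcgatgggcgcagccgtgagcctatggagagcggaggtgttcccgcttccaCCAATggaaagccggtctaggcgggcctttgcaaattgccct
EP400, chr12:131949692-131949941, plus strand: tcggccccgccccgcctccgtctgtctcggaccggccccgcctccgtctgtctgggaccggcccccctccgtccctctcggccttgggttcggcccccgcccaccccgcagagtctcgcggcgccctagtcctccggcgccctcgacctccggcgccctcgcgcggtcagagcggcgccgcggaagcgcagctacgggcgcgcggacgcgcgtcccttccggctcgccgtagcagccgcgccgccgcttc
INO80, chr15:41116281-41116530, minus strand: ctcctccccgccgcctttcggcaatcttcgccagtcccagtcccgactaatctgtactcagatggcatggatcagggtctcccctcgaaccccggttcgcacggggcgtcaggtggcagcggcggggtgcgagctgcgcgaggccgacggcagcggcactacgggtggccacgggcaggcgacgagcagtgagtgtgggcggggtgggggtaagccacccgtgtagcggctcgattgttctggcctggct

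Of the 9 starts, 6 had a CCAAT box before them and 2 a TATA box, against 32% and 10.7% of 35116 RefSeq promoters over the same 250 bases. The 6 belong to RUVBL1, RUVBL2, H2AFZ and H2AFV. At RUVBL1 and RUVBL2 both the outer and an inner start were counted, so the starts are not independent. The H2AFZ sequence held 3 CCAAT boxes and a TATA box, and that of H2AFV 3 CCAAT boxes and no TATA box in the 211 bases that lie outside its longest transcript. None of these letters stood before the starts of EP400, INO80 and SRCAP. The ratio of observed to expected CpG ran from 0.63 (the outer start of RUVBL1) to 1.18 (EP400), above the median promoter (0.56) at all 9 starts. The outer start of RUVBL1 nevertheless had fewer CG pairs (8 against a median of 11) and a lower GC content (45.2% against 58%) than the median promoter. These matches were counted at any distance from the start within these bases. They describe letters and do not show binding.

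The 20 H2A.Z peaks fell in the windows of RUVBL1 (8), RUVBL2 (6), H2AFV (5) and EP400 (1), and none lay at H2AFZ, INO80 or SRCAP. RUVBL2 peaks were listed at 6 of the 7 genes and at RUVBL1 not at all. H3K4ox peaks were listed at every gene, from 2.5 ± 0.7 (SD, n = 2) at H2AFZ to 43.5 ± 2.1 at INO80. To read these counts, the genome between the outermost peaks of each chromosome was divided into consecutive tiles as long as each window, and the share of tiles with at least as many peaks is given beside each count. Unlike the windows, the tiles were not chosen for holding a gene. A low share therefore need not set a window apart from those of other genes.

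**Figure D1:**
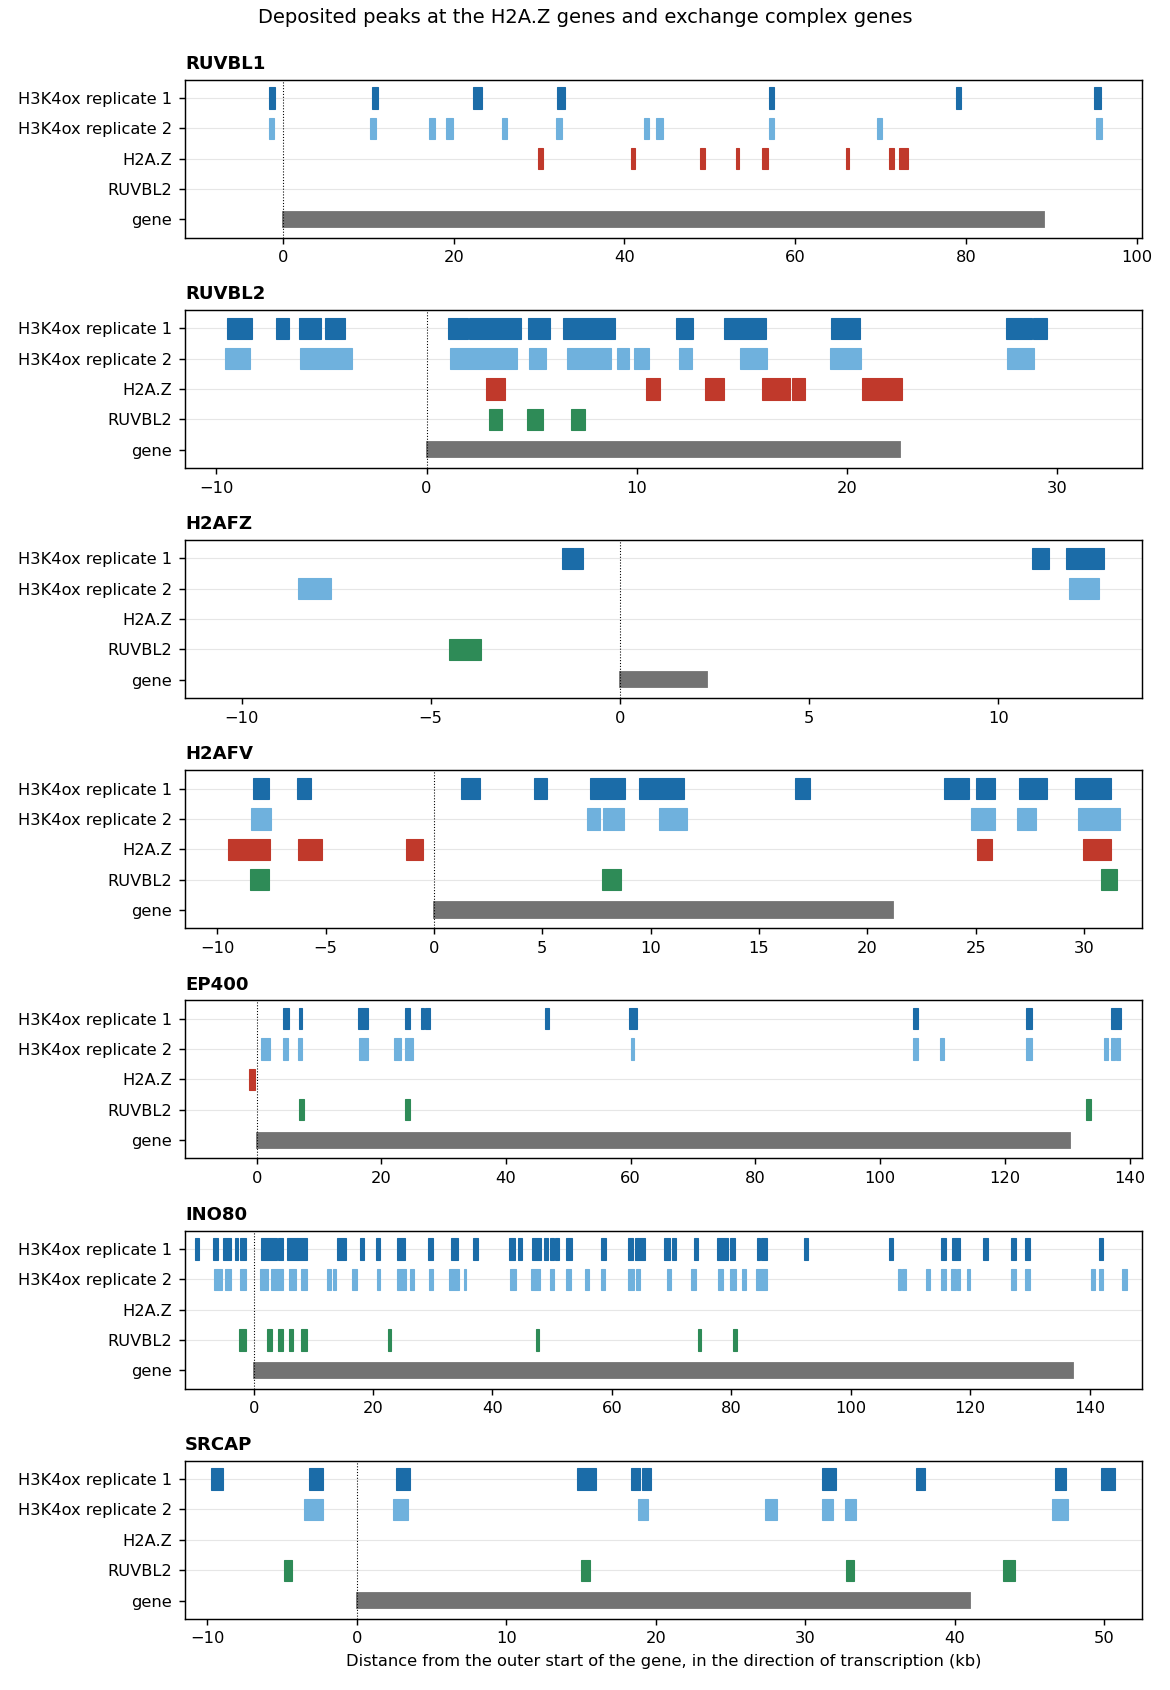
Peaks of the 4 lists in each window. The horizontal axis is the distance in kb from the outer start of the gene in the direction of transcription, the grey bar is the gene, and each coloured block is a peak drawn to scale. The 8 H2A.Z peaks of RUVBL1 lie between 29.9 and 73.3 kb with no RUVBL2 peak in the window, and INO80 has many H3K4ox peaks and no H2A.Z peak.

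**Figure D2:**
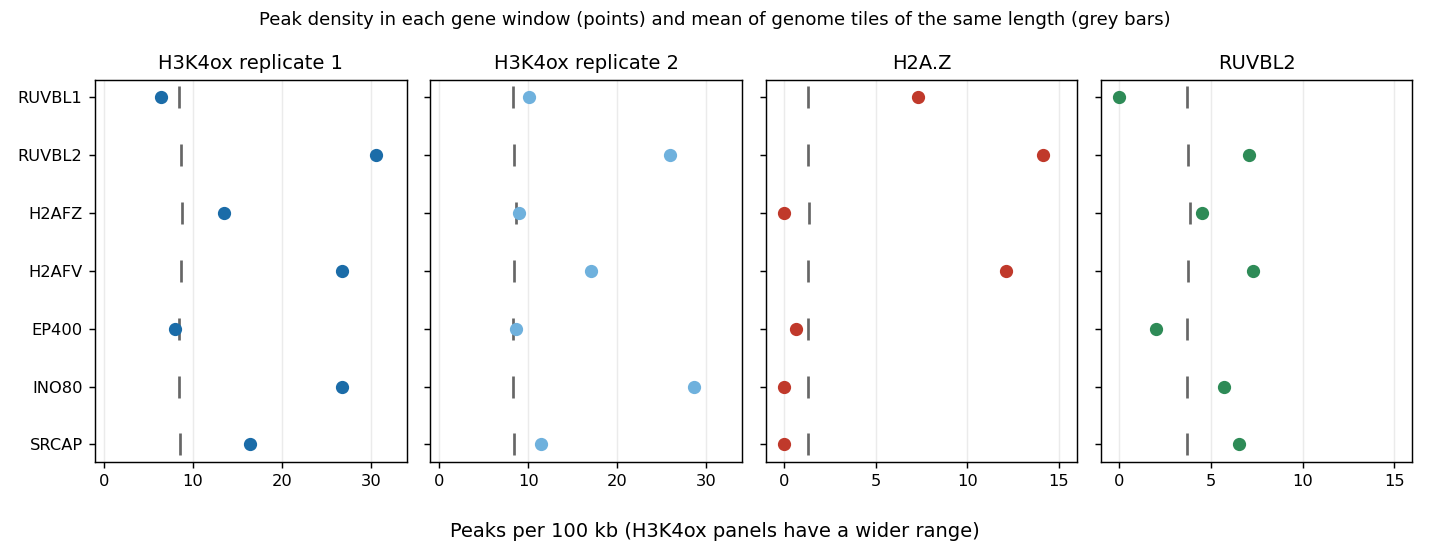
Peaks per 100 kb of each window (points) in the 4 lists, with the mean of all genome tiles of the same length (grey bars). RUVBL1, RUVBL2 and H2AFV stand above the tile mean for H2A.Z, at 7.33, 14.1 and 12.1 peaks per 100 kb, and the other 4 genes are below it.

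The genes for H2A.Z itself were unlike each other. H2AFZ (chromosome 4, 100869243 to 100871545, minus strand, 2.3 kb) had no peak of any list over the gene. In its window H3K4ox replicate 1 listed 3 peaks, with scores of 69.2, 59.9 and 64.1, and replicate 2 listed 2, with scores of 51.3 and 62.6. Counts this high were found in 29% and 45.5% of 22.3 kb tiles, so the window was ordinary for H3K4ox. Only 1 place was common to both replicates, at 100858741 to 100859741, whose peaks began outside the window and lay 11.8 kb from the gene start, beyond the gene end. The peak nearest to the H2AFZ start was seen in H3K4ox replicate 1 alone, from 1.5 to 1.0 kb before it. The single RUVBL2 peak lay from 4.5 to 3.7 kb before the start, with a score of 63.5, and met no other list (45.6% of tiles held at least 1). No H2A.Z peak was listed, as in 79% of tiles. A lncRNA gene, H2AZ1-DT, is annotated before the start and DNAJB14 after the end, so peaks in the flanks need not belong to H2AFZ.

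H2AFV (chromosome 7, 44866390 to 44887567, minus strand, 21.2 kb) lay in denser surroundings. H3K4ox replicate 1 listed 11 peaks and replicate 2 listed 7, and 6.17% and 15.4% of 41.2 kb tiles held as many. All 7 peaks of replicate 2 met a peak of replicate 1, and 6 of the 11 of replicate 1 met replicate 2. The highest scores, 221 and 241, were at a shared region from 44855925 to 44857976, beyond the gene end, and inside the gene the highest were 208 and 132 at 44875873 to 44878099. The H3K4ox replicates thus put their best peak at the same place.

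The 5 H2A.Z peaks of H2AFV stood around the gene and none inside it, a count reached by 1.13% of tiles. The peak next to the start covered 44888095 to 44888873, from 1.3 to 0.5 kb before it, had a score of 91.5 and met neither H3K4ox nor RUVBL2. Further before the start lay peaks at 44892753 to 44893843 (score 83.3) and 44895150 to 44897062 (score 205). Beyond the gene end lay peaks at 44861807 to 44862518 (score 62.5) and 44856334 to 44857623 (score 117). The outermost peak on each side was a joint site, which here means an H2A.Z peak that met both a RUVBL2 peak and a region found by both H3K4ox replicates (a shared region). At the upstream joint site the RUVBL2 score was 82.8 and the H3K4ox scores 57.7 and 76.4, and at the downstream site they were 55.4, 221 and 241. Tiles with at least 2 joint sites made up 2.25%. At least 3 RUVBL2 peaks were found in 21.3% of tiles. The third, at 44878929 to 44879837 inside the gene (score 62.9), met H3K4ox of both replicates and no H2A.Z. Both joint sites lay more than 7 kb outside the gene, and the downstream site runs across the window edge. A lncRNA gene, H2AZ2-DT, is annotated before the start, so peaks in the flanks need not belong to H2AFV.

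RUVBL2 (chromosome 19, 49496705 to 49519252, plus strand, 22.5 kb) encodes the ATPase that was itself immunoprecipitated. Its window was dense in H3K4ox, with 13 and 11 peaks that covered 38.3% ± 2.2 of it (SD, n = 2), and 4.08% and 6.41% of 42.5 kb tiles held as many. On chromosome 19 the shares were 36.3% and 47.2%, so the count was common for its chromosome. Replicates agreed at 12 of 13 and 9 of 11 peaks. The leading H3K4ox region, 49497728 to 49501222, began 1.0 kb inside the gene and reached scores of 360 and 639 in replicates 1 and 2. Another, 49510868 to 49512883, reached 398 and 185, so that the replicates named different regions as the best of the window.

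All 3 RUVBL2 peaks of the RUVBL2 gene lay in its first 8 kb. All 3 were in H3K4ox shared regions, as were 64.4% of the RUVBL2 list. They covered 49499690 to 49500290 (score 66.3), 49501481 to 49502256 (score 97.9) and 49503599 to 49504227 (score 57.2). Tiles with at least 3 made up 22.1% of the genome and 59.3% of chromosome 19, so the protein's own gene did not stand out in number of RUVBL2 peaks. The first of the 3 also met an H2A.Z peak, 49499547 to 49500415, which makes it the 1 joint site inside any of the 7 genes. That H2A.Z peak had a score of 55.8, below the H2A.Z list median of 66.7. Tiles with at least 1 joint site made up 10.1% of the genome and 31.7% of chromosome 19, so 1 joint site was not rare there.

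The other 5 H2A.Z peaks of RUVBL2 lay in the later part of the gene, away from the RUVBL2 peaks. They covered 49507147 to 49507828 (score 123), 49509940 to 49510854 (score 218), 49512659 to 49514014 (score 157), 49514108 to 49514696 (score 113) and 49517414 to 49519322 (score 255), the last of them over the gene end. A count of 6 H2A.Z peaks was found in 0.645% of all tiles and 6.2% of those on chromosome 19. Of these 5 peaks, 1 lay in an H3K4ox shared region and 1 more met replicate 2 alone. The remaining 3 met no H3K4ox peak, at distances of 14, 1225 and 54 bp from the nearest. The LHB gene overlaps the RUVBL2 gene end in RefSeq, and GYS1 lies before its start, so the peaks at both ends are shared with neighbours.

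RUVBL1 (chromosome 3, 127783621 to 127872757, minus strand, 89.1 kb), the partner of RUVBL2, held 8 H2A.Z peaks and no RUVBL2 peak. Per 100 kb of window it had 7.33 H2A.Z peaks, fewer than RUVBL2 (14.1) and H2AFV (12.1). From the 5′ side of the gene the H2A.Z scores were 190, 80.0, 75.5, 138, 306, 102, 78.85 and 328. All 8 stood above the list median and 3 among the upper 10% of the list. The highest covered 127799502 to 127800587 and the next 127815991 to 127816600. As many H2A.Z peaks were found in 2.16% of 109.1 kb tiles, and no RUVBL2 peak in 15.1%. Tiles with both made up 0.0109% (3 of 27563). With flanks of 20 kb the RUVBL1 window held 1 RUVBL2 peak and the same number of H2A.Z peaks, 8.

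None of the 8 H2A.Z peaks of RUVBL1 met a peak of another list. They lay 162 to 4377 bp from the nearest H3K4ox peak and 29765 to 65548 bp from the nearest RUVBL2 peak, whereas the medians over the whole H2A.Z list were 0 and 2443 bp. Tiles with at least 8 H2A.Z peaks that met no other list made up 0.0399% (11 of 27563). These combined shares were looked up after the peaks of RUVBL1 had been seen. The peaks were short, with a median of 569 bp against 808 bp in the list, and stood in a stretch of 43.4 kb with gaps of 585 to 10269 bp. The peak nearest to the 5′ side covered 127842279 to 127842874, which is 29.9 to 30.5 kb inside the outer start in hg19. In GRCh38.p14, RefSeq places the inner start of RUVBL1 30102 bp inside the outer start. No H2A.Z peak lay between the outer start and this peak. Exons were not analysed here. Whether these peaks, and those in the later part of RUVBL2, fall on exons or come from sequence other than the chromatin of the cells was not tested, which limits what their scores and their lack of overlap mean.

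The scores of the RUVBL1 peaks were high for their width. Each of the 8 scored above 95% of the H2A.Z peaks whose width was within 10% of its own, as did 3 of the 6 peaks at RUVBL2, the peak at EP400 and none of the 5 at H2AFV. Over the whole list 4.81% of peaks did so. The peak of 610 bp with a score of 306 exceeded 99.9% of 7801 peaks of similar width. At RUVBL2 the 3 were those with scores of 123, 218 and 113, of which 1 met H3K4ox, in replicate 2 alone, and none met RUVBL2. The joint sites at RUVBL2 and H2AFV ranked at 14.8%, 49.1% and 53.8% for their width. This ranking was chosen after the peaks had been seen and has no replicate.

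**Figure D3:**
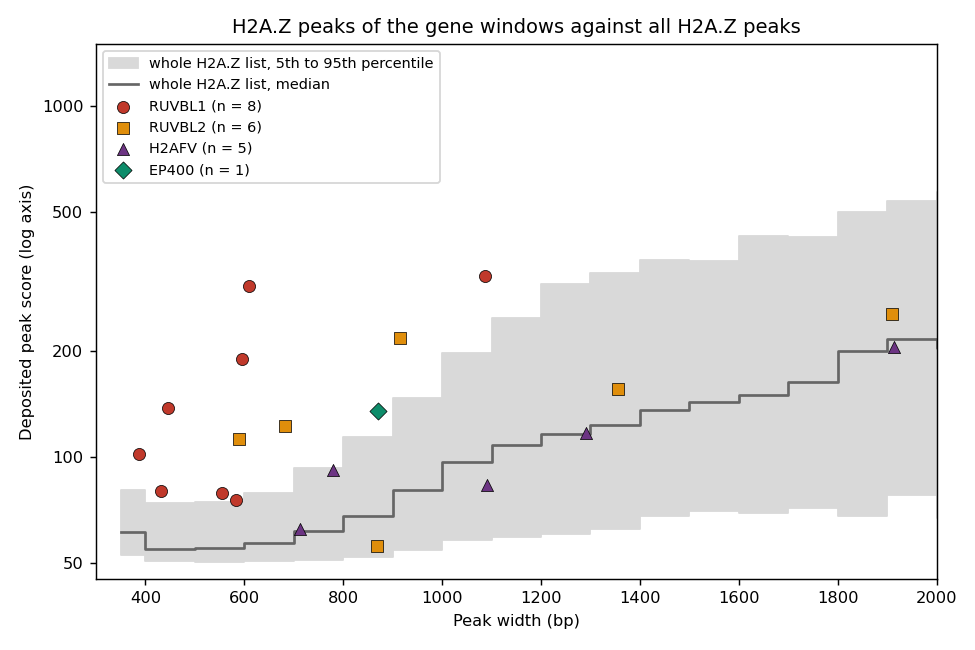
Score (log axis) against width in bp of the 20 H2A.Z peaks, marked by gene. The grey band spans the 5th to 95th percentile of all H2A.Z peaks in bins of width, and the line is their median. The 8 RUVBL1 peaks lie on or above the upper edge of the band, and the H2AFV peaks lie within it.

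**Figure D4:**
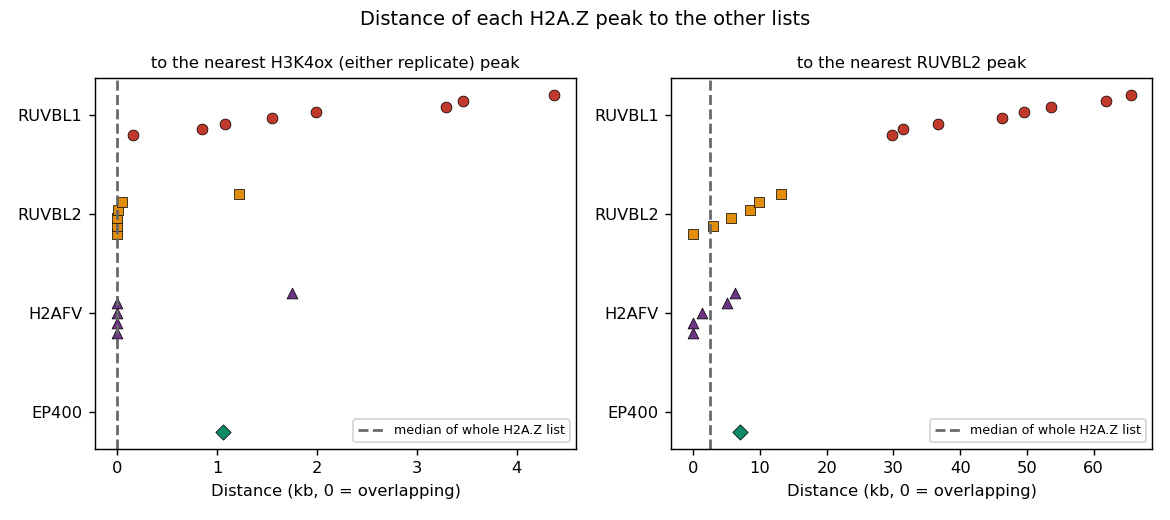
Distance in kb from each H2A.Z peak to the nearest H3K4ox peak of either replicate (left) and the nearest RUVBL2 peak (right), by gene, with the median of the whole H2A.Z list as a dashed line. The RUVBL1 peaks overlap neither and lie at least 29765 bp from RUVBL2.

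H3K4ox at RUVBL1 was ordinary in number. Its median score was 79.2 against 83.4 in the list of replicate 1, and 61.4 against 82.0 in that of replicate 2. Replicate 1 listed 7 peaks with scores from 52.5 to 108 and replicate 2 listed 11 with scores from 53.7 to 81.2, and 51.2% and 28.9% of tiles held as many. Both replicates found 5 regions, of which 1 lay before the outer start, 3 inside the gene and 1 after its end. Peaks of this window covered 5.71% ± 1.2 of it (SD, n = 2). SEC61A1 and EEFSEC overlap RUVBL1 in RefSeq, as does the antisense RNA gene RUVBL1-AS1, so the window is not that of RUVBL1 alone.

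EP400 (chromosome 12, 132434508 to 132565005, plus strand, 130.5 kb), the ATPase of the complex that also acetylates histones, was close to the genome's mean for H3K4ox. Its lists held 12 and 13 H3K4ox peaks, reached by 39.1% and 34.2% of 150.5 kb tiles, and 9 peaks of each replicate were found in the other. Its 9 shared regions reached best scores of 161 and 111 at 132450769 to 132452452 and of 153 and 139 at 132539715 to 132540659. The best peak of replicate 2 (score 148) lay at 132435293 to 132436697, from 0.8 to 2.2 kb inside the start. It did not meet replicate 1. The only H2A.Z peak of the window lay directly before the start, at 132433367 to 132434237, from 1.1 to 0.3 kb upstream, with a score of 135. It met neither H3K4ox nor RUVBL2 (63.9% of tiles held at least 1 H2A.Z peak). The RUVBL2 peaks, with scores of 69.2, 68.4 and 50.8, lay 6.8 and 23.8 kb inside the gene and beyond its end. The 2 inside the gene met shared regions, as did 64.4% of the RUVBL2 list. At least 3 RUVBL2 peaks were found in 68.2% of tiles. PUS1 lies before the EP400 start, so the H2A.Z peak stands between both genes. EP400P1, annotated as a transcribed pseudogene, follows the gene, and how reads that map to both were treated was not stated.

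SRCAP (chromosome 16, 30710462 to 30751500, plus strand, 41.0 kb), the other ATPase that deposits H2A.Z, had no H2A.Z peak, as in 59.2% of 61.0 kb tiles. On chromosome 16 the share without H2A.Z was 75.4%. With flanks of 20 kb the SRCAP window held 2 H2A.Z peaks. H3K4ox replicate 1 listed 10 peaks and replicate 2 listed 7, reached by 15.6% and 26.4% of tiles. The best peak of replicate 1 (score 121, 30725185 to 30726473) lay inside the gene and did not meet replicate 2. The best shared regions flanked the start: 30706916 to 30708235, 3.5 kb before it at its outer edge, with scores of 115 and 148, and 30712882 to 30714048, 2.4 kb inside, with scores of 87.2 and 121. The 4 RUVBL2 peaks had scores of 51.7, 50.5, 74.3 and 70.4, and 21.4% of tiles held as many (8.12% on chromosome 16). None of the 4 lay in a shared region, against 64.4% of the RUVBL2 list. Of the 4, 1 met H3K4ox replicate 1 alone and another replicate 2 alone. TMEM265 overlaps SRCAP in RefSeq and PHKG2 lies after its end, so peaks there need not belong to SRCAP.

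INO80 (chromosome 15, 41271078 to 41408340, minus strand, 137.3 kb) had many H3K4ox peaks, 9 RUVBL2 peaks and no H2A.Z in the longest of the 7 windows. Per 100 kb it had 27.7 ± 1.3 H3K4ox peaks (SD, n = 2), close to 28.2 ± 3.3 at RUVBL2, and 5.72 RUVBL2 peaks, fewer than at H2AFV (7.29), RUVBL2 (7.05) and SRCAP (6.55). Replicates 1 and 2 listed 42 and 45 H3K4ox peaks, which covered 24.9% ± 1.5 of the window (SD, n = 2) and were as many as in 4.39% and 3.08% of 157.3 kb tiles. Of these, 30 and 32 were found in the other replicate, and they formed 30 shared regions along the gene. The highest score of replicate 1, 311, was found in a region from 41404454 to 41407184, from 1.2 kb inside the start, where replicate 2 reached 102. The highest of replicate 2, 205, was found at 41382895 to 41384390, where replicate 1 reached 104.

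RUVBL2 peaks of INO80 gathered at its 5′ end. Of the 9, 4 lay in the first 9 kb of the gene and 1 just before the start. The other 4 lay between 22.5 and 80.9 kb inside the gene of 137.3 kb. That before the start, 41409555 to 41410715, from 2.4 to 1.2 kb upstream, had a score of 143, the highest RUVBL2 score in any of the 7 windows. It met H3K4ox in both replicates (scores 185 and 140). The 4 in the first 9 kb had scores of 53.3, 66.4, 64.1 and 99.4 and all met shared regions. In total, 7 of the 9 did so, against 64.4% of the whole RUVBL2 list. A count of 9 was found in 19.7% of tiles and in 8.78% of those on chromosome 15.

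No H2A.Z peak was listed in the INO80 window, and the nearest lay 65862 bp from the RUVBL2 peak before its start. Windows without H2A.Z were common, at 34.7% of tiles and 42.7% of those on chromosome 15. Among the 553 tiles that held at least as many peaks in both H3K4ox lists, however, 3 had no H2A.Z peak (0.542%), and their median was 8. On chromosome 15, 1 of 24 such tiles had none, with a median of 3. The comparison was chosen after the INO80 counts had been seen, and with 1 H2A.Z library it has no test.

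Over the 7 windows together, 13 of the 20 H2A.Z peaks met no other list, while RUVBL2 peaks lay in H3K4ox shared regions at about the share of the whole list. H3K4ox shared regions held 5 of the 20 H2A.Z peaks (25%, Wilson interval at 95% from 11.2 to 46.9), against 45.2% of the list. RUVBL2 peaks were met by 3 of them (15%, 5.24 to 36), against 33.4%, and the same 3 were joint sites, against 25.7%. The intervals of these 3 shares include the value of the list. H3K4ox of either replicate was met by 7 of 20 (35%, 18.1 to 56.7), against 64.9%. That the interval leaves out the list value is no test, because it treats peaks of the same gene as independent. By gene these were 0 of 8 at RUVBL1, 3 of 6 at RUVBL2, 4 of 5 at H2AFV and 0 of 1 at EP400. This gap thus leans on RUVBL1 and was not tested. The other 5 genes had no joint site, as in 79% of tiles for RUVBL1, 94.1% for H2AFZ, 73.4% for EP400, 86.6% for SRCAP and 72.6% for INO80. The 13 of 20 peaks that met no H3K4ox peak also met no RUVBL2 peak (65%, 43.3 to 81.9), against 31.5% of the list. This share therefore repeats the H3K4ox gap and is no separate result, and 8 of these 13 were the RUVBL1 peaks. Of the 23 RUVBL2 peaks, 15 (65.2%, 44.9 to 81.2) lay in shared regions, against 64.4%. H3K4ox of either replicate was met by 17 (73.9%, 53.5 to 87.5), against 81.9%, and 3 met H2A.Z, against 11.8%. H3K4ox replicates agreed at 70.4% of 98 and 70.8% of 96 peaks, against 67.8% and 70.2%. The intervals cover counting error only, and peaks of 1 gene are not independent.

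Pooled over the windows, H2A.Z scores were high for their list, also at equal width, but not at every gene. The median H2A.Z score was 120 against 66.7 in the list, and 18 of 20 peaks were above the list median. Among peaks of similar width the 20 had a median rank of 96.2%. Of the 20, 8 came from RUVBL1, and the 5 at H2AFV ranked from 29.8% to 92.5%. The median RUVBL2 score was 63.5 against 73.4, with 5 of 23 above the list median, namely 1 each at RUVBL2, H2AFV and SRCAP and 2 at INO80. These RUVBL2 peaks were also narrower than the list (median 733 bp against 870 bp), and among peaks of similar width their median rank was 55.7%, with 13 of 23 above 50%. For H3K4ox the medians were 78.3 and 77.8 against 83.4 and 82.0, with 44 of 98 and 45 of 96 peaks above. The lists were scored separately, so a score was compared only within its own list.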

How the data were processed

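The members and gene lists were chosen with earlier results of these data known. Each of the 4 lists was deposited by the authors for 1 library, with peaks named after MACS per the file headers and a score per peak as written by the caller. The header lines of the H3K4ox lists name an input, and those of H2A.Z and RUVBL2 do not. The word multilocus stands in all 4 headers and was not explained. Bowtie, TopHat and the build hg19 are named in the submitters' processing notes, and no source used here states their versions or the settings of the caller. The lowest score in each list was 50. Depth is unknown, so precision rests on peak numbers and on the 2 H3K4ox lists.

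Gene bounds in hg19 came with the list of genes and were widened by 10 kb. Starts were counted from 1, and peaks met when they shared at least 1 bp. Shared regions were merged H3K4ox peaks with both replicates. Tiles ran between the outermost peaks of each chromosome. All 7 genes matched RefSeq GRCh38.p14, used for strand, neighbours and letters, with no coordinates converted. By rule, all members, joint sites and peaks at gene ends were named, and the best peaks per list were given, some by score only. Other subunits of the complexes needed an hg19 annotation and were not analysed here. Overlap and merging were tested on simulated data. Python 3.11.15, numpy 2.4.6, pandas 2.3.3, scipy 1.17.1 and matplotlib 3.10.9 were used. Alternatives were other flanks, the best-scoring 50% of each list, 200 bp centres, 50% coverage and leaving out each H3K4ox replicate.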

Additional observations from a re-analysis of the deposited data

How the results depend on the processing

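Joint sites depended most on the settings. The 3 of the main count became 1 without flanks, 6 with flanks of 20 kb and 0 in the best-scoring 50% of each list. They became 0 with 200 bp intervals at the peak centres and 1 when at least 50% of the peak had to be covered. When 1 H3K4ox replicate was left out, all peaks of the other replaced the shared regions, which is a looser rule. The count was then 3 and could not fall, because all 3 met both replicates. RUVBL2 peaks numbered 23, 40 with flanks of 20 kb and 5 in the upper 50% by score. Those in H3K4ox shared regions numbered 15, 26 with flanks of 20 kb, 3 in the upper 50% and 6 with 200 bp intervals. They numbered 16 under the looser rule, whichever replicate was left out. H3K4ox peaks numbered 97 ± 1.4 (SD, n = 2), 44.5 in the upper 50%, and 96 to 98 when a replicate was left out. H2A.Z peaks, 20 in the main count, ranged from 14 to 25. Of 196 counts for single genes, 147 stayed within 1.5 times the main count and 49 did not. Of the 49, 18 were in the upper 50% by score. Many that stayed were 0 under both settings, as joint sites were at RUVBL1, H2AFZ, EP400, INO80 and SRCAP. Keeping 50% of a list by score also tends to lower counts past that factor by design. The tally is therefore no measure of stability. With flanks of 20 kb the RUVBL1 window held 1 RUVBL2 peak, against 0. No paired analysis was possible because H2A.Z and RUVBL2 have 1 library each and counts of peaks come from no test. Without depth, a gene with no peak cannot be told from a gene with signal below the threshold of the caller.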
